A study of Rattus norvegicus with 18 samples.

Results

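Acta1, Ckm, Mb and Mylpf are 4 transcripts of striated muscle that carried counts in rat dorsal root ganglia (DRGs), the clusters of sensory nerve cell bodies beside the spinal cord. They are 4 of the 41078 transcripts of the count table (ENSRNOT00000024084, ENSRNOT00000022895, ENSRNOT00000006184 and ENSRNOT00000023944), and were selected on their measured levels in these rats, above all those in TKA rat 2. Their differences between the surgery groups and between the sexes, and their relations to each other, are therefore given as a description. The counts of calls from the fit over all transcripts stand beside them, and nothing is read from these for the 4. Bulk RNA sequencing was made of the L3 and L4 DRGs of the left side, exposed by laminectomy, from 18 Sprague Dawley rats, with both ganglia of a rat in one library. The groups were naive rats with no procedure, sham rats that were anaesthetized, cut through the skin and sutured, and TKA rats that underwent a full total knee arthroplasty (TKA), in which the knee joint is replaced by implants. DRGs were taken 24 h after TKA or sham surgery, to ask which transcripts change in the ganglia during acute postoperative pain. Each group held 6 rats, of which rats 1 to 3 were labelled male and rats 4 to 6 female. Ages were not given in the sources used here.

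Muscle contracts when filaments of myosin pull on filaments of actin, and adult skeletal muscle builds its thin filaments from the alpha actin encoded by Acta1. Mylpf encodes the regulatory light chain that sits on the myosin of fast fibres. Ckm, the muscle creatine kinase, regenerates ATP from phosphocreatine, and Mb, myoglobin, binds oxygen and is most abundant in slow, oxidative fibres and in the heart. A ganglion is made of neurons, satellite glia and myelinating Schwann cells, and holds no muscle fibres of its own.

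Total counts ran from 20230562 to 29343899 per library, and 16048 transcripts passed the filter on low counts over the 18 rats, all 4 muscle transcripts among them. The neuronal identity of the samples was checked on the neurofilament transcripts Nefl, Nefm and Nefh, whose mean lay between 12.51 and 13.91 log2 CPM (counts scaled to library size by TMM, with a prior count of 2 on the log2 scale) in every rat. TKA rat 2 had the lowest neurofilament mean, and its Isl1, a transcription factor of sensory neurons, stood at 6.98 CPM against 79.2 to 111 CPM in the 12 naive and sham rats. In a bulk library, fewer neurons and less RNA per neuron cannot be told apart. The library labelled female TKA rat 4 held 3472 counts of 3 transcripts present in male-labelled rats (3097 to 5025 counts) and near absent from the other female-labelled rats (0 to 1). It also held 0 counts of 1 transcript that the other female-labelled rats carried at 350 to 627 counts. The comparison of the sexes for the 4 is therefore given with and without it. The table gives no transcript lengths, so levels are compared between rats and not between genes.

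Acta1 was present in every rat. In naive rats it ran from 12.02 CPM over a median of 32.8 to 161 CPM, in sham rats from 17.2 over 85.1 to 400 CPM, and in TKA rats from 22.3 over 385 to 6010 CPM. TKA rat 2 held the 6010 CPM, which was 115459 counts, or 0.541% of its library. TKA rats 3 and 6 followed at 647 and 639 CPM, above every naive and sham rat, whereas TKA rats 1, 4 and 5 lay inside the range of the naive and sham rats at 40.4, 22.3 and 131 CPM.

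Ckm ran from 1.75 over 6.75 to 59.4 CPM in naive rats, from 0.127 over 24.5 to 148 CPM in sham rats and from 6.93 over 84.8 to 1382 CPM in TKA rats. TKA rat 2 held the highest value, but TKA rats 3 and 6, at 118 CPM each, did not exceed sham rat 4 at 148 CPM. Ckm was almost absent from sham rat 5, where 3 counts were found.

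On the log2 CPM scale, where the prior count sets the value of rats with no count, Mb had the widest range of the 4. It ran from 0 over 0.828 to 4.81 CPM in naive rats, from 0 over 2.10 to 31.8 CPM in sham rats and from 0.0834 over 54.0 to 691 CPM in TKA rats. Naive rat 1 and sham rat 5 had no Mb count, which allows levels of up to 0.128 and 0.127 CPM (3 counts, counting error only). TKA rats 2, 3 and 6, at 691, 107 and 102.3 CPM, lay above all naive and sham rats, while TKA rat 1 had 2 counts.

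Mylpf ran from 2.52 over 4.10 to 24.9 CPM in naive rats, from 2.89 over 16.7 to 49.9 CPM in sham rats and from 2.82 over 24.4 to 476 CPM in TKA rats. Here TKA rat 2 alone exceeded every naive and sham rat, since TKA rats 3 and 6, at 29.4 and 28.2 CPM, lay below sham rat 4. For all 4 transcripts the ranges of the 3 groups overlapped.

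**Figure D1:**
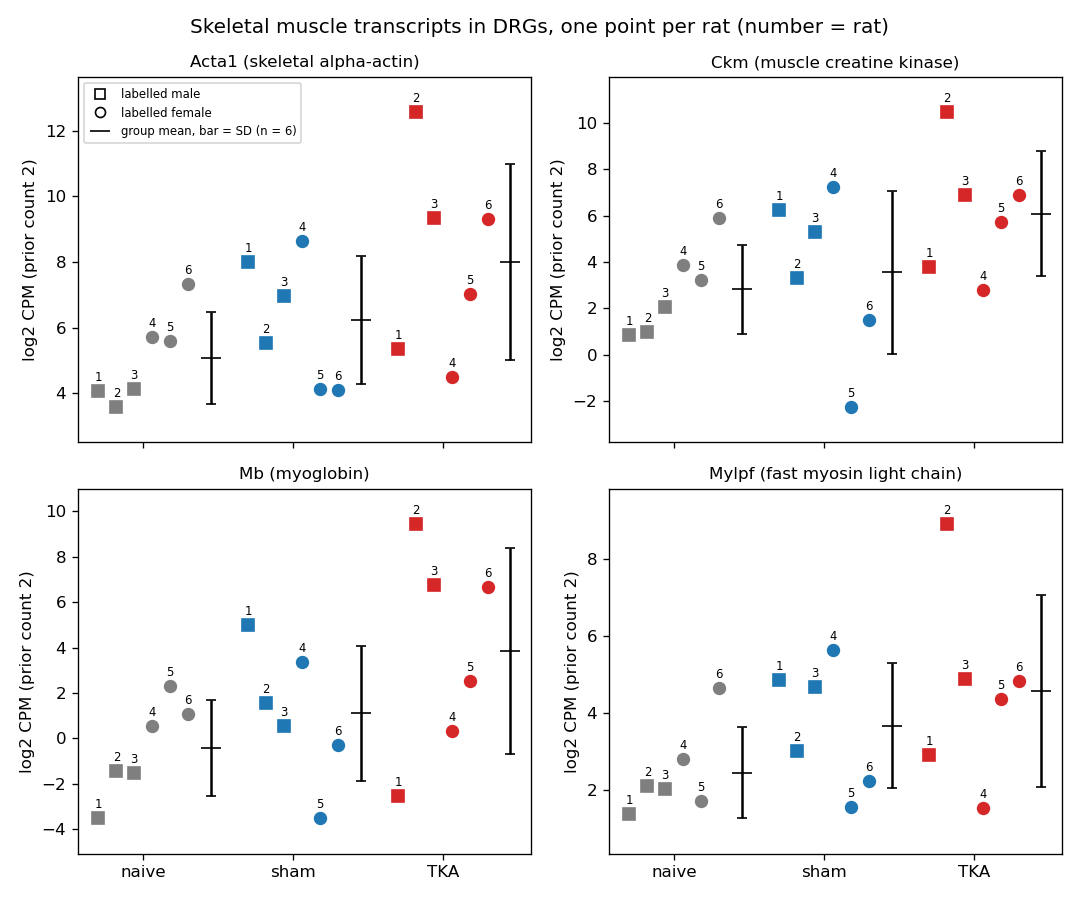
Level of Acta1, Ckm, Mb and Mylpf (vertical axis, log2 CPM with a prior count of 2) in each naive, sham and TKA rat, with 1 numbered point per rat and 6 rats a group. TKA rat 2 stands highest in all 4 panels (Acta1 6010 CPM, Ckm 1382 CPM, Mb 691 CPM, Mylpf 476 CPM). TKA rats 3 and 6 lie above every naive and sham rat in Acta1 and Mb but not in Ckm and Mylpf, and TKA rats 1, 4 and 5 exceed the highest naive and sham rat in none of the 4.

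The group medians of each of the 4 transcripts rose in the order naive, sham, TKA, but neighbouring groups did not differ beyond their spread. Acta1 averaged 5.07 ± 1.40 log2 CPM in naive rats (SD, n = 6), 6.23 ± 1.94 in sham rats and 8.01 ± 2.99 in TKA rats. Mb averaged −0.43 ± 2.11, 1.10 ± 2.97 and 3.86 ± 4.54 log2 CPM (SD, n = 6) in the same order. For all 4, the step from one group's mean to the next was smaller than the larger of the 2 SDs. Within-group coefficients of variation of the CPM values ran from 91.7% (Mylpf in sham rats) to 199% (Mylpf in TKA rats).

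Much of the TKA means came from TKA rat 2. The mean Acta1 level of the TKA group was 1248 ± 2350 CPM (SD, n = 6) with that rat and 296 ± 319 CPM (SD, n = 5) without it, against 143 ± 155 CPM in sham rats. Mean Mb fell from 151 ± 269 to 43.3 ± 56.2 CPM when TKA rat 2 was left out, and mean Mylpf from 94.0 ± 187 to 17.7 ± 12.1 CPM, which is below the sham mean of 19.9 ± 18.3 CPM.

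In edgeR's quasi-likelihood fit over all transcripts, TKA exceeded sham by 3.14 ± 1.28 on the log2 scale for Acta1 (SE), by 2.63 ± 1.38 for Ckm, by 4.29 ± 1.67 for Mb and by 2.25 ± 1.12 for Mylpf. None of the 4 was called (adjusted p under 0.05, fold-change 1.5 or more), where 0% of the 15320 transcripts tested were called. DESeq2 called none of the 4, beside 0.405% of all transcripts, and gave no p for Ckm and Mylpf. Without TKA rat 2 the edgeR differences were 1.03 for Acta1, 0.41 for Ckm, 2.47 for Mb and −0.18 for Mylpf.

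TKA exceeded naive by 4.61 ± 1.29 on the log2 scale for Acta1 (SE), 4.22 ± 1.32 for Ckm, 6.71 ± 1.70 for Mb and 3.63 ± 1.15 for Mylpf. None of the 4 was among the 13 transcripts called by edgeR (0.0857% of 15170). DESeq2 called Acta1 and Mb, beside 2.83% of all transcripts, and gave no p for the other two. Leaving out TKA rat 2 lowered the 4 edgeR differences to 2.53, 2.02, 4.90 and 1.21.

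Sham against naive gave smaller differences with the same sign. They were 1.49 ± 0.77 on the log2 scale for Acta1 (SE), 1.61 ± 1.05 for Ckm, 2.43 ± 1.14 for Mb and 1.40 ± 0.68 for Mylpf. None of the 4 was called by edgeR, where 0% of 15153 transcripts were called, nor by DESeq2, which called 0.0264% of all transcripts. Single rats moved these values. Without sham rat 4 the differences were 0.85 for Acta1, 0.75 for Ckm and 0.87 for Mylpf, without sham rat 1 that of Mb was 1.05, and without naive rat 6 those of Acta1, Ckm and Mylpf were 2.29, 2.86 and 2.26. The 3 contrasts share their groups, so their values are not separate lines of evidence.

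The sex labels did not enter the choice of the 4 transcripts, but TKA rat 2, whose levels led to it, is labelled male. The sex differences are therefore also a description, and their p-values are no evidence about sex. They were fitted over all 18 rats with group as a term. Rats labelled male held a median of 46.0 CPM of Acta1 (12.02 to 6010 CPM) and rats labelled female 52.3 CPM (17.2 to 639 CPM), and the ranges overlapped. Male exceeded female by 0.14 on the log2 scale (SE 1.14, edgeR adjusted p = 0.985). The differences were −0.14 for Ckm (SE 1.33, edgeR adjusted p = 0.987), 1.13 for Mb (SE 1.34, edgeR adjusted p = 0.861) and 0.53 for Mylpf (SE 0.98, edgeR adjusted p = 0.918). None of the 4 was called by edgeR, against 0.0312% of the 16048 transcripts tested (0.00623% higher in males). DESeq2 called none of the 4, beside 0.312% of all transcripts. None of the 4 passed an unadjusted p under 0.05, against 8.81% of all transcripts. With SEs near 1 on the log2 scale, a sex difference of several-fold could go undetected. Leaving out TKA rat 2 gave −0.68 for Acta1, −1.03 for Ckm, 0.11 for Mb and −0.48 for Mylpf, so the sign for Mylpf turned on that rat. The sign for Acta1 also changed when other single rats were left out, such as sham rat 1 (−0.175) or TKA rat 5 (−0.29). Without TKA rat 4 the differences were −0.32 for Acta1, −0.655 for Ckm, 0.73 for Mb and 0.12 for Mylpf. With that rat entered as male they were −0.36 for Acta1 (edgeR adjusted p = 0.984), −0.69 for Ckm, 0.62 for Mb and 0.07 for Mylpf.

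Acta1, Ckm and Mb matched entries of the RefSeq promoter table (build GRCr8, a later build than the rn6 named for the counts). The 250 bases before each start are shown as a description, and whether they bear on the levels in these rats was not tested. Both strands were searched for the E-box CANNTG, the motif of the myogenic factors, for TATAAA, and for the CArG box and the MEF2 box, which bind serum response factor and the MEF2 factors. Matches are in capitals, and no matches overlapped in these windows.
Acta1, chr19:68784195-68784444, minus strand: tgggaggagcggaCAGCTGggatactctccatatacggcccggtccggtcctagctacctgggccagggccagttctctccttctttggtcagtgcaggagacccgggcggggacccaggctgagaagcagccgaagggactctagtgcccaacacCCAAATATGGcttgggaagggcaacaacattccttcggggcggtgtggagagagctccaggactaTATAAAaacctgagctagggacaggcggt
Ckm, chr1:88189211-88189460, plus strand: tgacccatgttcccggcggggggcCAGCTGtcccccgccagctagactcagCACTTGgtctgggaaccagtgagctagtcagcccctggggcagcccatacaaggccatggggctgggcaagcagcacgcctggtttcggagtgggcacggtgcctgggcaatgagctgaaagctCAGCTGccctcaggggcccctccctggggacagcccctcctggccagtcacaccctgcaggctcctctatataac
Mb, chr7:110647743-110647992, minus strand: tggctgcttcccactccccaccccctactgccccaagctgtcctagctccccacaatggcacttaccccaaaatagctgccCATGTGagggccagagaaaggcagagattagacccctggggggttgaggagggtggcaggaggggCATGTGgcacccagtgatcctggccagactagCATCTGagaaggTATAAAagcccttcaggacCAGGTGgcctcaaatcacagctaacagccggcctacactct

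The Acta1 window held 1 E-box, 1 TATAAA that began 29 bases before the start and 1 CArG box that began 94 bases before it. Ckm held 3 E-boxes and no TATAAA, and Mb held 4 E-boxes and 1 TATAAA that began 60 bases before the start. No MEF2 box was matched in the 3 windows. Of the 27457 promoters in the table, 65.2% held an E-box, 10.97% held 3 or more, 13.1% held TATAAA, 1.501% a CArG box and 3.07% a MEF2 box, so an E-box alone was common. A match is a description of the letters and was not tested for binding.

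The levels of the 4 transcripts went together across the 12 naive and sham rats. Their levels in these rats were known when they were chosen, so the correlations of log2 CPM are a description with no p. Acta1 and Ckm gave a Pearson r of 0.916 and the highest Spearman rho of the 6 pairs, 0.944. Acta1 and Mylpf gave r = 0.934 and rho = 0.811, and Ckm and Mylpf r = 0.892 and rho = 0.916. Mb was paired less closely, with r = 0.854 and rho = 0.851 for Ckm, r = 0.828 and rho = 0.799 for Acta1, and r = 0.734 and rho = 0.746 for Mylpf.

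All 6 pairs were positive within each group of 6, with r from 0.460 (Mb and Mylpf) to 0.980 (Acta1 and Ckm) in naive rats and from 0.825 (Mb and Mylpf) to 0.981 (Acta1 and Mylpf) in sham rats. Without the 2 rats farthest from the median of the first measure, r ran from 0.626 (Mb and Mylpf) to 0.917 (Ckm and Mylpf) over 10 rats. The points share a library and its depth.

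The mean of the 4 in log2 CPM placed the rats in order. TKA rat 2 was first, 138-fold above the median of the naive and sham rats, followed by TKA rat 3 (13.4-fold), TKA rat 6 (13.0-fold), sham rat 4 (7.95-fold), sham rat 1 (6.97-fold), TKA rat 5 (3.22-fold) and naive rat 6 (2.85-fold). TKA rats 1 and 4 lay below that median, at 0.556-fold and 0.522-fold, and sham rat 5 was last at 0.106-fold. The gap between TKA rat 2 and TKA rat 3 was 3.36 on the log2 scale. Summed, the 4 transcripts took 0.770% of the counts of TKA rat 2, 0.0890% of TKA rat 3, 0.0871% of TKA rat 6, 0.0601% of sham rat 4 and 0.00188% of naive rat 2, the lowest.

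The mix of the 4 was not the same in all rats. Of their summed counts Acta1 made up 70.2% in TKA rat 2 (95% Wilson interval 70.0 to 70.4), and it ran from 62.6% in TKA rat 5 (61.3 to 63.9) to 85.2% in sham rat 5 (81.8 to 88.1). Mb took 11.9% in TKA rat 3 (11.5 to 12.3), 11.5% in TKA rat 6 (11.1 to 11.98) and 8.07% in TKA rat 2 (7.94 to 8.20). It took 8.09% in sham rat 1 (7.52 to 8.70), whose interval overlapped that of TKA rat 2, but 1.67% in sham rat 4 (1.46 to 1.90). TKA rats 1, 4 and 5 held 0.135%, 3.45% and 2.71%, so the Mb share did not follow the groups. Mylpf took 3.27% in TKA rat 3 (3.06 to 3.49), 3.18% in TKA rat 6 (2.94 to 3.42) and 8.20% in sham rat 4 (7.75 to 8.68). Its share also varied within groups, with 5.56% in TKA rat 2, 12.1% in TKA rat 1 and 4.87% in naive rat 5. All of these intervals cover counting error only.

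**Figure D2:**
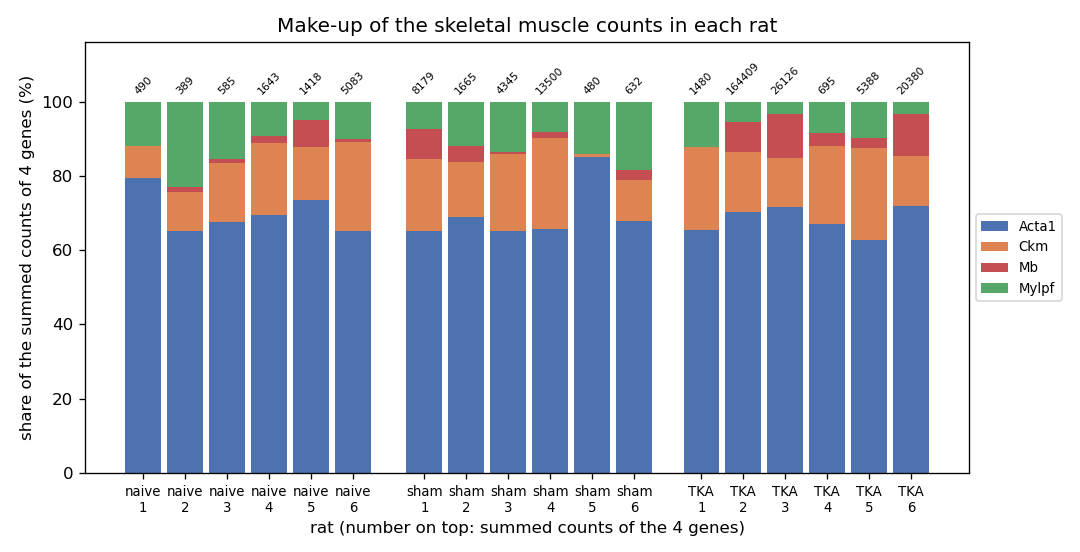
Share of the summed counts of the 4 transcripts (vertical axis, %) taken by each of them in each of the 18 rats (horizontal axis), with the summed counts printed above each bar. Mb takes its largest share in TKA rat 3 (11.9%) and TKA rat 6 (11.5%), where Mylpf takes 3.27% and 3.18%, and sham rat 5 is 85.2% Acta1.

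Taken per 100 Acta1 counts, Mb stood at 16.6 in TKA rat 3, 16.005 in TKA rat 6, 12.4 in sham rat 1, 11.5 in TKA rat 2 and 9.98 in naive rat 5, and at 6.18 or less in the other 13 rats. These 5 rats were singled out after their values were seen, and they come from all 3 groups. Mylpf per 100 Acta1 counts was 4.55, 4.41, 11.2, 7.91 and 6.62 in the same rats in that order, and 12.5 to 35.0 in the other 13. Ckm per 100 Acta1 counts did not separate them, with 18.3 to 29.6 in the 5 rats and 0.733 to 39.6 in the others.

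The balance of fibre types was read from Myh7, the myosin heavy chain of slow fibres, and Mybpc2, the myosin-binding protein of fast fibres, neither of which is among the 4. Myh7 reached 930 CPM in TKA rat 2, 256 CPM in TKA rat 6, 162 CPM in TKA rat 3 and 39.2 CPM in sham rat 1, against 6.04 CPM in sham rat 4 and 0.545 CPM in TKA rat 5. Mybpc2 was 371 CPM in TKA rat 2 and 72.1 CPM in sham rat 4, and stood at 23.7 CPM in TKA rat 3, 16.6 CPM in TKA rat 6, 17.8 CPM in TKA rat 5 and 12.9 CPM in sham rat 1. The log2 difference Myh7 minus Mybpc2 was 3.94 in TKA rat 6, 2.77 in TKA rat 3, 1.60 in sham rat 1, 1.33 in TKA rat 2 and −0.36 in naive rat 5. In the other 13 rats it lay between −6.65 and −0.95. The low end depends on the prior count, since Myh7 had no count in naive rat 4 (−6.65) and sham rat 6 (−5.24). The rats with most Mb per Acta1 were thus also those with most Myh7 per Mybpc2, a description over 18 rats with no test.

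**Figure D3:**
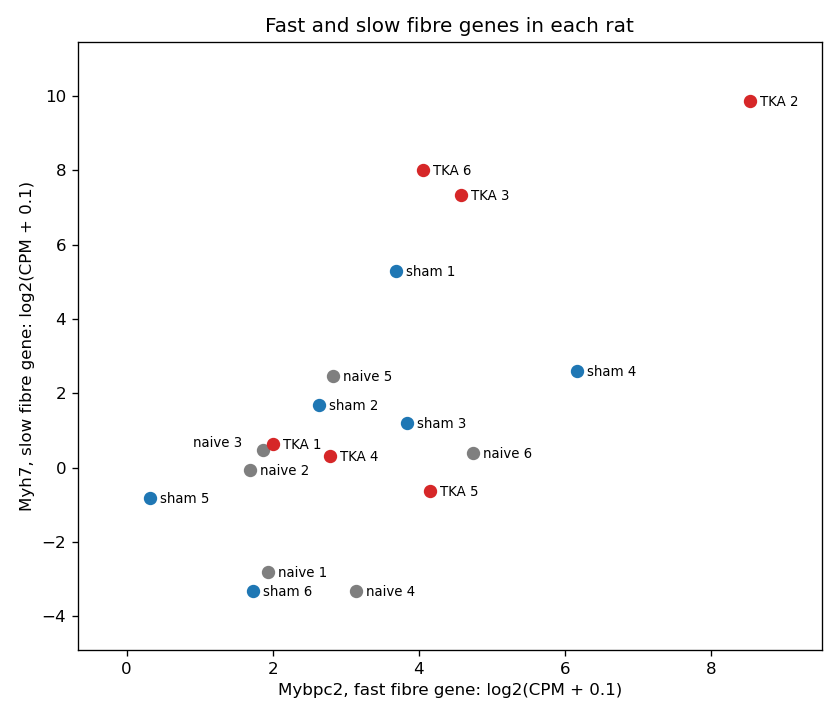
Slow-fibre gene Myh7 (vertical axis) against fast-fibre gene Mybpc2 (horizontal axis), both as log2(CPM + 0.1), with 1 labelled point per rat. TKA rats 2, 3 and 6 stand highest on the Myh7 axis (930, 162 and 256 CPM), whereas sham rat 4, second highest in Mybpc2 (72.1 CPM), has 6.04 CPM of Myh7.

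Other skeletal muscle genes were grouped in 6 lists, which together held 50 named genes with the 4, or 46 without them. Names were available for 9.34% of transcripts, chiefly those at the top of comparisons made on these rats, so the lists are not independent evidence of their direction. TKA rat 2 was the highest of the 18 rats in 46 of the 50 genes, against 23.9% of all transcripts tested. The 4 exceptions were Myh8, Cox7a1, Hhatl and Myod1.

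The median of the 50 genes lay 5.56 on the log2 scale above the median of the naive and sham rats in TKA rat 2, 2.54 in TKA rat 3 and 2.39 in TKA rat 6. It lay at 0.54 in TKA rat 5, −0.23 in TKA rat 1 and −0.39 in TKA rat 4, and the median over all transcripts was between −0.04 and 0.03 in each of the 6 rats. Of the 50, 46 exceeded all 12 naive and sham rats in TKA rat 2, against 27.9% of all transcripts. That count was 33 in TKA rat 3 (9.40% of all transcripts) and 39 in TKA rat 6 (18.9%), but 1 in TKA rat 5 (7.89%), 3 in TKA rat 1 (9.12%) and 4 in TKA rat 4 (8.65%). Without the 4 chosen transcripts the median in TKA rat 2 was 5.45.

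All 6 lists were above the naive and sham median in TKA rat 2. The energy list, which holds Ckm and Mb with the carbonic anhydrase Ca3 and the cytochrome oxidase subunit Cox6a2, had a median of 6.39 on the log2 scale in that rat. Ca3 reached 1094 CPM there, 160 CPM in TKA rat 3 and 208 CPM in TKA rat 6. The thick filament list stood at a median of 5.80 and ran from −3.82 (Myh8) to 9.44 (Myh7), the widest range of the 6 lists. The Z disc list stood at 5.73, with the actin crosslinker Actn2 at 463 CPM and desmin (Des) at 477 CPM. The thin filament list stood at 5.49, the regulator list at 5.18 and the excitation-contraction list, with the calcium release channel Ryr1 at 136 CPM and the voltage sensor Cacna1s at 123 CPM, at 5.10.

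The slow-fibre genes Myh7, Myl3, Tnnc1 and Casq2 had medians of 6.51, 4.08 and 4.64 on the log2 scale above the naive and sham median in TKA rats 2, 3 and 6, and of 0.16 in TKA rat 5. The fast-fibre genes Mylpf and Mybpc2 had medians of 6.08, 2.10, 1.81 and 1.63 in the same rats. All 4 slow-fibre genes exceeded every naive and sham rat in TKA rats 3 and 6, and neither fast-fibre gene did.

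**Figure D4:**
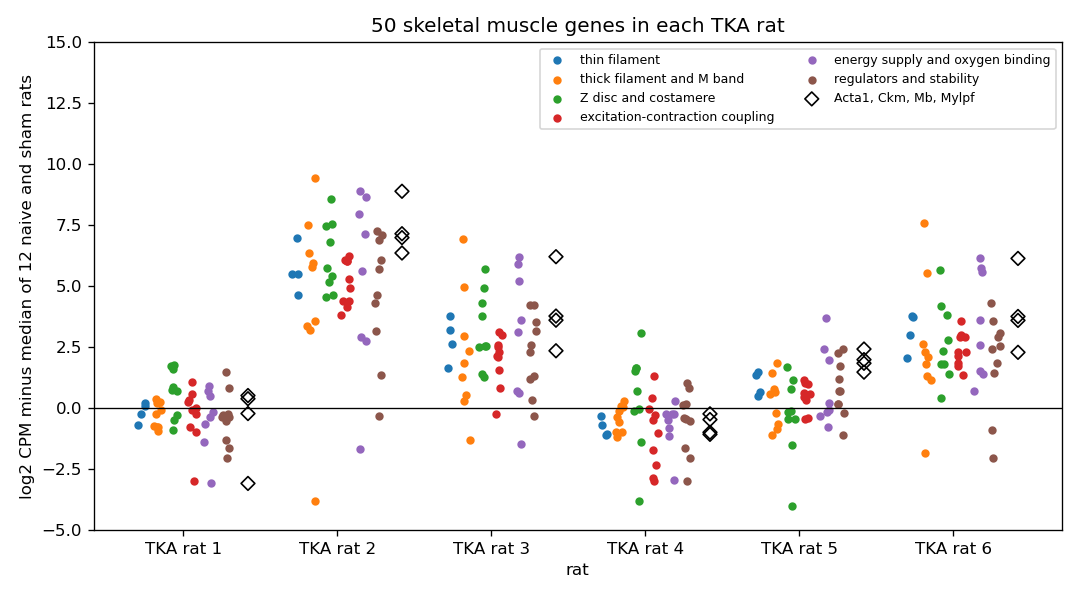
Log2 CPM of 50 skeletal muscle genes in each TKA rat minus the median of the 12 naive and sham rats (vertical axis), with 1 point per gene, by TKA rat (horizontal axis). The medians are 5.56 in TKA rat 2, 2.54 in TKA rat 3 and 2.39 in TKA rat 6, and lie between −0.39 and 0.54 in TKA rats 1, 4 and 5.

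A few listed genes did not follow the 4. Myh8, a developmental myosin heavy chain, was at 0.364 CPM in TKA rat 2 and 4.02 to 11.4 CPM in the naive and sham rats. Hhatl, at 64.6 CPM in TKA rat 2, was below the naive and sham range of 73.4 to 95.8 CPM, and it was lower than the lowest of those 12 rats in all 6 TKA rats (43.4 to 71.6 CPM). Cox7a1 was at 0.104 CPM in TKA rat 2, but its level was low in every rat (0.231 to 1.84 CPM in naive and sham rats), so little can be read from it. Of the heart genes, Myh6 was at 191 CPM in TKA rat 2 against 62.9 to 114 CPM in naive and sham rats, Nppa was at 2.60 CPM and Tnni3 had no count there.

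Over the 50 genes the TKA and sham difference had a median of 2.52 on the log2 scale, against 0.01 over all transcripts tested. edgeR called 0 of the 50, while 34 were higher and 2 (Myh8 and Hhatl) lower at an unadjusted p under 0.05, beside 5.94% of all transcripts higher and 8.84% in either direction. DESeq2 called 1 of them, Csrp3, a Z disc protein, beside 0.405% of all transcripts. Without TKA rat 2, edgeR found 5 of the 50 higher and 2 lower at the unadjusted threshold, beside 3.89% of all transcripts higher, and the median difference was 0.88. Without TKA rats 2 and 6, which were left out after the data were seen, 1 was higher and 2 were lower, beside 3.26% of all transcripts higher, and the median was 0.51.

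Of 43 genes tested between TKA and naive rats, edgeR called 0, and 39 were higher and 2 lower at an unadjusted p under 0.05, beside 11.7% of all transcripts higher and 17.2% in either direction. DESeq2 called 26 higher and 1 lower, beside 2.83% of all transcripts. Without TKA rat 2, edgeR called 3 higher, Klhl41, Xirp2 and the actin crosslinker Flnc, and Myh8 lower, beside 0.732% of all transcripts called. Of 46 tested between sham and naive rats, edgeR called 0, beside 0% of all transcripts, and DESeq2 called 0, beside 0.0264%. In edgeR 5 were higher and 1 lower at the unadjusted threshold, beside 2.49% of all transcripts higher and 4.12% in either direction. Between the sexes, with TKA rat 4 entered as labelled, edgeR called 0 of 50, beside 0.0312% of all transcripts, and DESeq2 called 0, beside 0.312%. In edgeR 3 (Ankrd2, Csrp3 and Hspb7) were higher in males at an unadjusted p under 0.05, beside 4.93% of all transcripts. Without TKA rat 2, none of the 50 passed that threshold between the sexes.

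The transcripts most like the mean of the 4 across the 12 naive and sham rats were found among the other 16044 tested, by Pearson r of log2 CPM. Among the nearest 10, 6 had a name. They were Ca3 (r = 0.964), the heart and muscle kinase Alpk3 (0.952), Cacna1s (0.941), the stress-responsive ankyrin repeat gene Ankrd23 (0.933), Des (0.926) and Mybpc2 (0.919). An r above 0.8 was found for 10 of the 46 other muscle genes and for 41 of the 16044 transcripts (0.256%). The median r was 0.67 over the 46 genes and 0.00 over all transcripts. Over 18 rats the named genes among the nearest 10 were Cacna1s (0.974), Alpk3 (0.973), Ankrd23 (0.966), Ca3 (0.964), Hjv (0.955) and Klhl41 (0.949). These correlations share libraries and depth and are given as a description.

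Markers of other tissues moved in some of the same rats. All 8 myelin genes were highest in TKA rat 2, where their summed level was 94448 CPM, and their sums ran from 6765 to 11638 CPM in naive rats, from 7553 to 18249 CPM in sham rats and from 10589 CPM in TKA rats. Their mean was 10.23 log2 CPM in TKA rat 2 and 9.34 in TKA rat 6 but 6.91 in TKA rat 3, inside the range of 6.68 to 7.82 of the naive and sham rats. The sensory neuron list of 5 genes summed to 17541 to 39738 CPM in TKA rats, with the minimum in TKA rat 2, against 35658 to 46738 CPM in naive and 34779 to 44245 CPM in sham rats. Calca, the precursor of the neuropeptide CGRP, was at 70.4 CPM in TKA rat 2 and at 421 to 700 CPM in the other 17 rats. TKA rat 3 thus carried Acta1 at 647 CPM with neurofilament (13.66 log2 CPM) and myelin levels inside the naive and sham ranges.

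The 4 connective tissue genes summed to 245 to 432 CPM in naive, 220 to 495 CPM in sham and 443 to 1166 CPM in TKA rats, all 4 being highest in TKA rat 2. The 3 fat genes summed to 48.5 to 68.4, 49.1 to 99.98 and 59.7 to 773 CPM, with Lpl at 289 CPM in TKA rat 2 and the adipocyte marker Plin1 at 0 in 16 of 18 rats, TKA rat 2 included. The 4 cartilage genes summed to 42.8 to 89.7, 38.7 to 80.4 and 54.6 to 349 CPM. Most of that maximum, in TKA rat 2, was Col2a1 at 331 CPM. Acan was at 0.364 CPM there, and Cilp at 6.82 CPM was below its naive and sham median of 10.15 CPM. The 3 satellite glia genes summed to 338 to 406, 290 to 673 and 446 to 2739 CPM. Of these, Fabp7 was at 49.5 CPM in TKA rat 2, near its naive and sham median of 45.7 CPM. The haemoglobin gene Hbb was at 33.9 to 252, 13.2 to 756 and 41.6 to 993 CPM. Their part in the level of the 4 muscle transcripts was not tested.

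**Figure D5:**
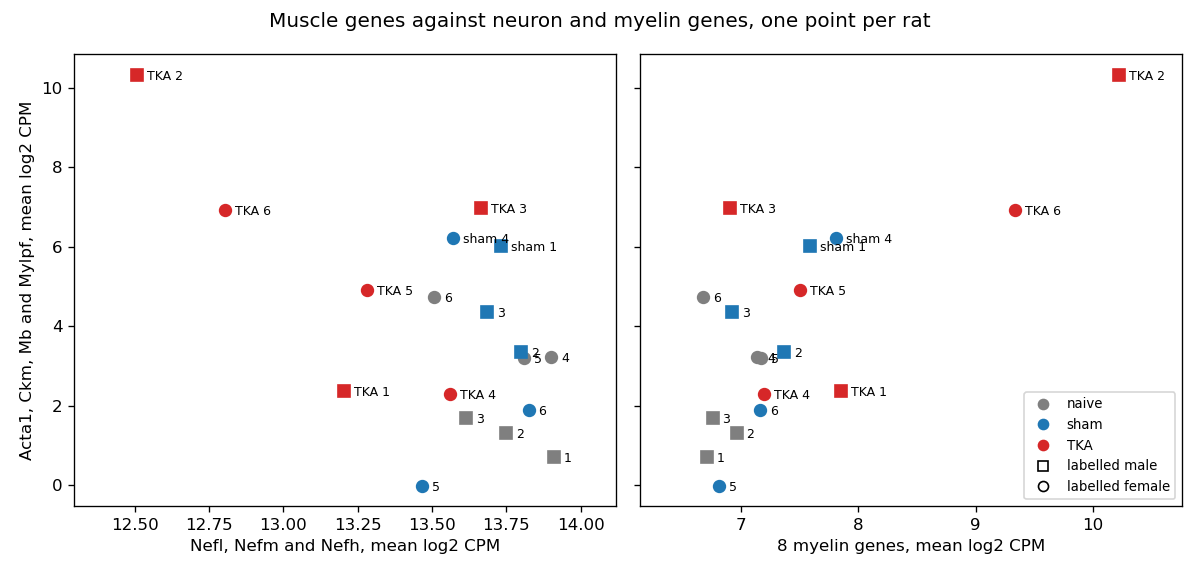
Mean log2 CPM of Acta1, Ckm, Mb and Mylpf (vertical axis) against the mean log2 CPM of the neurofilament genes (left) and of the 8 myelin genes (right), with 1 numbered point per rat in 3 groups of 6. TKA rats 2 and 6 combine high muscle levels with low neurofilament (12.51 and 12.80) and high myelin (10.23 and 9.34), while TKA rat 3 lies at 13.66 and 6.91.

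Across the 12 naive and sham rats the mean of the 4 had r = −0.143 and rho = −0.231 with the neurofilament mean. With the myelin mean it had r = 0.666 and rho = 0.517, and r was 0.146 within naive rats and 0.798 within sham rats. Without the 2 rats farthest from the median myelin level, r was 0.236. With library size it had r = −0.416 and rho = −0.364. These too are descriptions with no p.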

How the data were processed

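Bulk mRNA was sequenced (paired-end, 150 bp) from DRGs of 18 rats. Per the labels, the authors used HISAT2, rn6 and featureCounts. The deposited values are whole-number counts of reads for each Ensembl transcript. Their DESeq2 step was not used here, and tool versions are not given in the sources used here. All 18 count columns were used, with totals of 20230562 to 29343899. CPM values are counts divided by the library size with TMM scaling. The SEs given for edgeR differences were worked out as the absolute log2 difference divided by the square root of its F statistic. Transcripts were kept with filterByExpr and tested with edgeR 4.0.16 (R 4.3.3) quasi-likelihood F tests with Benjamini-Hochberg adjustment, and called at an adjusted p of 0.05 and a fold-change of 1.5, two-sided. DESeq2 1.42.0, other scalings and filters, a replicate block and leaving out each rat were alternatives. The fits were tested on simulated data. Correlations (scipy 1.17.1) are descriptions, and the permutation p-values planned for them are not reported because the levels were known when the 4 were chosen.

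The members and lists were chosen with earlier results of these data known. Genes were named if they were among the 4, in the lists, or among the named transcripts in the 10 nearest to the mean of the 4. Names came from the study's own tables. Each rat is 1 animal and 1 library. No 2 libraries agreed within sampling noise.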

Additional observations from a re-analysis of the deposited data

Results flagged for a closer look

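A value was picked out here when the gap between a group's extreme rat and the next exceeded Dixon's 95% critical value for 6 samples. Levels and shares gave 36 groups of 6 values, of which chance would pick out about 1.8 if the groups were independent and normally distributed. They are not independent, since CPM and log2 CPM describe the same values and the shares of a rat depend on each other. The number picked out is therefore not compared with 1.8.

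TKA rat 2 stood apart from the other TKA rats in all 4 transcripts on the CPM scale. These values led to the choice of the 4, so the gap is a description and is no evidence beyond that choice. Acta1 was 6010 CPM against 647 CPM in the next rat, Ckm 1382 against 118 CPM, Mb 691 against 107 CPM and Mylpf 476 against 29.4 CPM. Naive rat 6 stood apart from the other naive rats in 3 of the 4, with Acta1 at 161 CPM (next 52.3), Ckm at 59.4 CPM (next 14.5) and Mylpf at 24.9 CPM (next 6.95). Sham rat 1 stood apart in Mb, at 31.8 CPM (next 10.1). In the mix of the 4, Mb took 7.33% in naive rat 5 (next 1.83%) and Acta1 took 85.2% in sham rat 5 (next 69.0%). None of the 12 groups of log2 CPM values met the criterion.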

How the results depend on the processing

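Of 316 recomputed log2 differences of the 4 transcripts, 297 kept their sign and their side of the threshold, and 17 changed sign. Since the 4 were rarely called, a kept side says little about size. Acta1 between TKA and sham counts as kept at 0.54 without TKA rats 2 and 6, against 3.14 with all rats. Mylpf between TKA and sham ran from −0.18 (without TKA rat 2) to 2.75 with 1 rat left out, against 2.25 with all rats, and was −0.41 without TKA rats 2 and 6 (chosen after seeing the data). DESeq2 called Acta1 and Mb between TKA and naive, where edgeR did not. The sex differences ran with 1 rat left out from −0.68 to 1.44 for Acta1, −1.03 to 1.75 for Ckm and −0.48 to 1.499 for Mylpf, and Acta1 was −0.36 with TKA rat 4 entered as male (chosen after seeing the data). None was called.

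Over all transcripts DESeq2 called 62 (TKA against sham), 4 (sham against naive), 429 (TKA against naive) and 50 (sex). TKA against naive gave 13 calls, from 3 to 113 with 1 rat left out (113 without TKA rat 2), 105 without TKA rats 2 and 6, and 1 with the replicate block. Sex gave 5, from 1 to 13 with 1 rat left out, 3 at a mean of at least 50 counts and 12 with TKA rat 4 entered as male. TKA against sham and sham against naive stayed at 0 with any rat left out.

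Of 135 recomputed correlations, 2 changed sign. That to neurofilament ran from −0.532 to 0.012 with 1 rat left out, and that to myelin from 0.525 (without sham rat 4) to 0.848. Same-numbered rats shared a number and a labelled sex, so the replicate block also takes up labelled sex. The correlations of these rats exceeded 0.1 in 1 of 6 pairs for TKA and sham, 1 of 6 for sham and naive and 0 of 6 for TKA and naive. The replicate block changed no call of the 4. Under the block the TKA and naive differences were 2.44 (Acta1), 2.87 (Ckm), 4.96 (Mb) and 1.97 (Mylpf), and that of Mylpf between TKA and sham was 0.98. The causes were not tested. Depth limits Mb and Ckm in rats with under 10 counts.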
